A study of Mus musculus with 24 samples.

Results

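The diabetic left ventricle of mice with a cardiac GLUT4 transgene was compared with the non-diabetic left ventricle of mice with the same transgene. The samples were the 6 hearts labelled mG4H_STZ and the 6 labelled mG4H_VEH, 12 of the 24 hearts of the series. Hearts were taken by these labels and not by a measured value, though the comparison was chosen with earlier results of these data known. The other 12 hearts came from control mice (CON), again 6 given streptozotocin and 6 given buffer. The series asks how glucose delivery into heart muscle bears on the diabetic heart. Each heart gave total RNA for 1 one-colour Agilent microarray.

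Every mG4H mouse, diabetic or not, carried a transgene for glucose transporter 4 that can be switched on in cardiomyocytes, and the transgene was induced for 2 weeks before the heart was taken. Mice of the STZ group had received streptozotocin at 55 mg/kg on 5 consecutive days, 2 weeks before induction. Mice of the VEH group had received an equal volume of citrate buffer. All were males, hearts were taken early in the morning, and the right ventricle was removed. The labels give no age, no promoter or inducing agent for the transgene, and no genotype for CON mice beyond that name. They say that mice had siblings in other groups, but not which mice. The p-values for blood glucose and body weight rest on the mG4H mice alone. For genes, p-values and SEs rest on a spread estimated over mG4H and CON mice together, unless stated otherwise. That shared spread is not the spread of mG4H STZ hearts, which varied most. As a median over all genes, their SD was 0.39, against 0.22 in mG4H VEH hearts.

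Streptozotocin kills the insulin-producing beta cells of the pancreas, so blood glucose rises and insulin falls. GLUT4, encoded by Slc2a4, is the insulin-responsive carrier that lets glucose into heart and skeletal muscle. A heart short of insulin burns mostly fatty acids, which also switch on genes through the nuclear receptor PPAR alpha, and a strained heart turns on genes of the fetal ventricle such as Myh7 and Nppa.

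Blood glucose at 4 weeks in the 6 mG4H STZ mice was between 500 and 601, and between 131 and 152 in the 6 mG4H VEH mice. The mean was 553.8 ± 51.9 (SD, n = 6) after STZ and 139.3 ± 7.69 (SD, n = 6) after buffer (exact permutation test, two-sided, p = 0.00216, adjusted p = 0.00433 over 2 comparisons). STZ replicates 3, 4 and 5 were at 601, the highest value in the labels, and replicates 1, 2 and 6 at 516, 504 and 500. Body weight was 24.7 ± 2.35 against 27.3 ± 2.25 (SD, n = 6 each), a difference of -2.60 that did not pass (exact permutation test, two-sided, p = 0.0779). The difference passed only without the heaviest diabetic mouse, STZ replicate 6, at -3.28 (exact permutation test, two-sided, p = 0.0216). Leaving that mouse out can only widen it. With any other 1 mouse left out, p was 0.0649 to 0.162 in the same permutation test. The labels give no unit for either value.

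On the arrays, a gene's level is the log2 of its processed signal minus the log2 of that array's 75th percentile, so 0 is the 75th percentile. Over the 12 arrays that percentile was 369.8 to 533.6, and 60.2% to 76.3% of gene spots were well above background. The arrays lay on 4 slides. Slides 1 and 2 each held 2 STZ and 2 VEH hearts of mG4H mice. Slide 3 held 2 STZ hearts and 1 VEH heart, replicate 2, so differences within slide 3 rest on that 1 VEH heart. Slide 4 held 1 mG4H heart, VEH replicate 3. Of the variance over the 12 arrays, the first principal component held 43.5%, most of it (86.1%) a matter of slide. The next held 20.8%, with 26.9% between treatments, and set STZ replicates 3 and 5 (scores -73.6 and -92.1) apart from the VEH arrays (8.79 to 25.8), while STZ replicate 2 (31.2) lay beyond them on the other side. Counts of genes are therefore also given without them.

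The probe for Slc2a4 read 6.33 to 6.61 (median 6.57) in the VEH hearts and 5.66 to 6.94 (median 6.37) in the STZ hearts. The groups overlapped, and the log2 difference of -0.18 ± 0.16 (SE) did not pass (limma, adjusted p = 0.715). In CON VEH hearts the same probe read 6.73 on average, and it fell there after STZ by 0.58 (adjusted p = 0.0436), so no excess from the transgene was visible on it. Whether the probe (chr11:69756073-69756132, mm9) can read the transgene was not determined here, and it is therefore no check of the labels.

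After STZ, mG4H hearts had higher Myh7, Nppa, Acot1, Cldn15 and Cyp1a1, and lower Plekhh1, Grin3b, Lgi3 and Thrsp. With 1 of the 12 arrays left out in turn, Nppa, Acot1 and Thrsp did not always pass the test described next, while the others did. In limma's test over all 28235 genes, 75 passed the threshold of adjusted p under 0.05 (0.266%). Of these, 28 were higher (0.0992%) and 47 lower (0.166%), with a median fold change of 1.93 among the higher and 1.63 among the lower. A gene symbol was given for 17 of the higher and 39 of the lower genes, and 4 of the others are intergenic transcripts. All 6 STZ hearts lay outside the range of the 6 VEH hearts for 58 of the 75, which were selected on these same hearts, and that favours such a gap. Over all genes it was so for 472 (1.67%). Among these 472, 128 were higher (0.453%) and 344 lower (1.22%).

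The count moved with single arrays and with how the spread was estimated. Without STZ replicate 2 it was 627, and without STZ replicates 3 and 5 together, a choice made after the data were seen, it was 5 (Plekhh1, Grin3b, Rasl10a, 1500017E21Rik and an intergenic transcript). Without any other single array of the 24 it was 17 to 161. With slide as a block 48 genes passed (0.17%), 22 higher (0.0779%) and 26 lower (0.0921%), 39 of them among the 75, whose own adjusted p then ran from 0.00306 to 0.0785. Scaled to array medians, which moved the median log2 fold change of all genes from 0.06 to -0.05, 6 genes passed (Myh7, Cyp1a1, Plekhh1, Lgi3, Lgr5 and Gm4841). From the 12 mG4H arrays alone limma called 0 genes, with 2818 at an unadjusted p under 0.05 and Lgi3 at the smallest adjusted p, 0.172, so the calls rest on a spread shared with the CON arrays. Within slides 1, 2 and 3 all 75 kept their sign, but they were selected on these same arrays, which favours that.

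**Figure D1:**
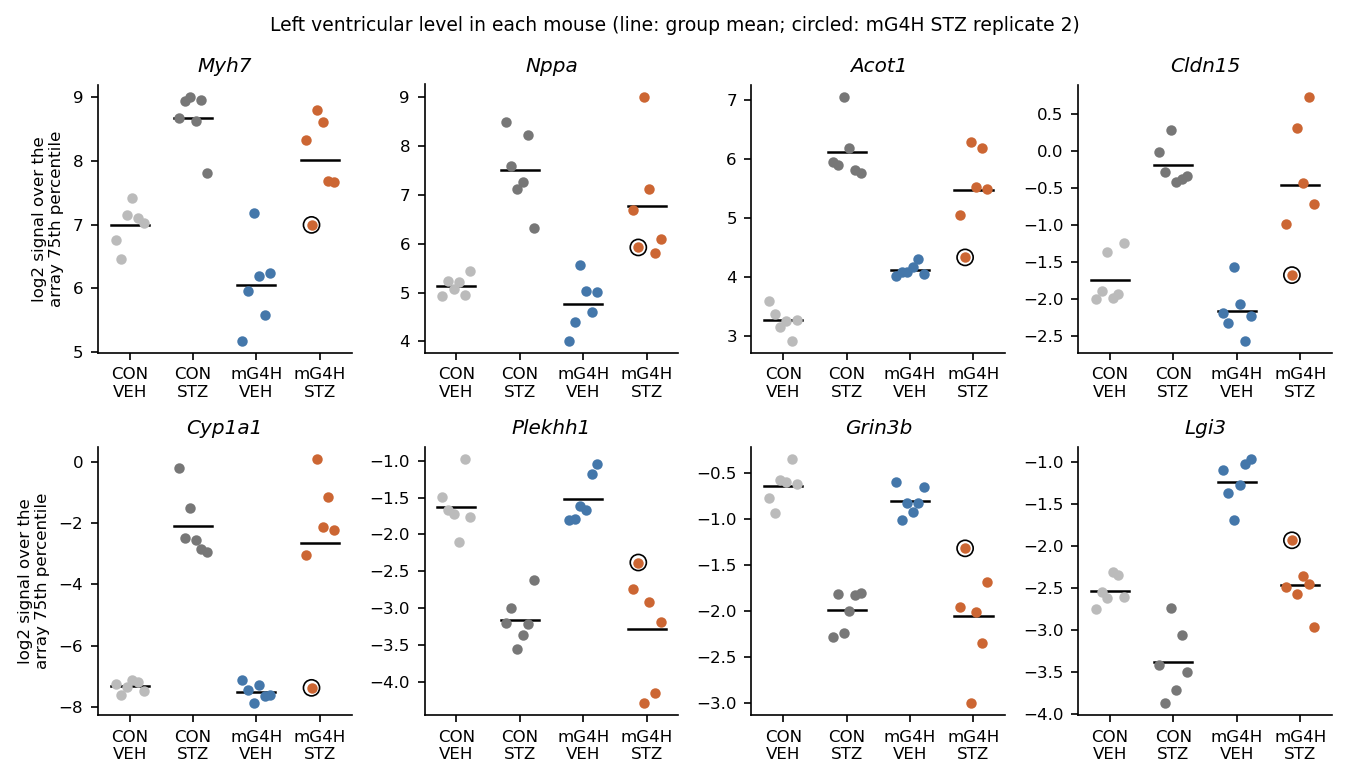
Level of 8 genes in each of the 24 hearts (log2 signal over the array's 75th percentile), by group; lines are group means and the circle marks mG4H STZ replicate 2. That heart is the mG4H STZ heart nearest the mG4H VEH hearts in 7 of the 8 panels, Nppa being the exception.

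Of 17 fetal and natriuretic genes 2 rose, Myh7 and Nppa, and the list's median log2 fold change was 0.02, against 0.06 over all genes. Myh7, the slow beta myosin heavy chain of the fetal mouse ventricle, was between 5.18 and 7.18 in the VEH hearts (median 6.08) and between 6.99 and 8.80 in the STZ hearts (median 8.005). It rose by 1.96 ± 0.31 (SE), 3.88-fold (limma, adjusted p = 0.00869). The groups overlapped only where VEH replicate 3, the heart on slide 4, at 7.18 lay above STZ replicate 2 at 6.99. The difference was 1.79, 1.95 and 2.74 within slides 1, 2 and 3, and the call held with each of the 12 arrays left out in turn. The Myh7 probe (chr14:55589581-55589640, mm9) could share signal with Myh6, the close copy beside it that dominates the adult mouse heart. A probe on the adjoining bases, listed as LOC674761 and picked out here after its values were seen, also rose, by 1.67 (adjusted p = 0.0207). Myh6 is among 13 ventricular cardiomyocyte markers, whose log2 differences ran from -0.23 to 0.13. Shared signal was not tested.

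Nppa, which encodes atrial natriuretic peptide, was between 4.02 and 5.57 in the VEH hearts (median 4.81) and between 5.81 and 9.01 in the STZ hearts (median 6.39). Every STZ heart lay above every VEH heart, and Nppa rose by 2.00 ± 0.43 (SE), 4.01-fold (limma, adjusted p = 0.0494). STZ replicate 3, at 9.01, was far above the next heart, STZ replicate 4 at 7.12. The difference was 1.14, 1.79 and 3.67 within slides, and Nppa did not pass with a slide block (adjusted p = 0.0623) or in 10 of the 12 fits that left out 1 array. Atrial tissue also makes Nppa. Of the other 9 atrial markers 0 passed, and their log2 differences ran from -1.52 for Myl7 to 0.35 for Bmp10, named here only as the ends of that range. The mean level of the 10 atrial markers was -0.17 to 1.78 in the VEH hearts, highest in VEH replicates 5 and 6, and -0.16 to 1.16 in the STZ hearts, highest in STZ replicate 4. Their part in the Nppa result was not tested.

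Acot1, a cytosolic enzyme that splits long-chain acyl-CoA into fatty acid and CoA, stood in a narrow range of 4.01 to 4.30 in the VEH hearts (median 4.08). In the STZ hearts it was 5.05, 4.33, 6.28, 5.53, 6.19 and 5.49 in replicates 1 to 6. STZ replicate 2 thus lay barely above the buffer range, and the groups did not overlap. Acot1 rose by 1.36 ± 0.25 (SE), 2.57-fold (limma, adjusted p = 0.0241), and by 1.59 without STZ replicate 2. The call held in 4 of the 12 fits that left out 1 array, with adjusted p up to 0.0688. Without STZ replicates 3 and 5 it was 0.98 and missed the threshold (adjusted p = 0.166). Acot1 has close copies, among them Acot2, outside the rule for named genes, at 0.66 (adjusted p = 0.0966), and Acot4, at 0.15 (adjusted p = 0.648), and the probes could share signal. Of 12 measured acyl-CoA thioesterase genes, Acot1 alone passed the test over all genes.

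Cyp1a1, a cytochrome P450 of foreign-compound metabolism, had no VEH heart above the background mark (0 of 6). It passed the mark in 5 of 6 STZ hearts, at -3.05, 0.10, -2.12, -1.15 and -2.22 in replicates 1, 3, 4, 5 and 6. STZ replicate 2, at -7.38, lay within the VEH range of -7.86 to -7.13. The rise passed the test (limma, adjusted p = 0.00869) and was at least 7.60-fold, the mean of the STZ hearts set against the lowest signal that each VEH array marked as above background. Of the other 28 genes on the list of antioxidant and aryl hydrocarbon genes 0 passed, and the list's median log2 fold change was 0.07, against 0.06 over all genes.

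Promoter sequences of the genes just described show what lies before their start sites. They cover the 250 bases upstream of the start, from RefSeq on GRCm38.p6, on the gene's own strand, with capitals at each match to 7 short motifs on either strand. The motifs were GCGTG (the aryl hydrocarbon receptor core), CATTCC (the MCAT element of muscle genes), GATAA and the longer AGATAA that contains it (GATA factors), AGGTCA (a nuclear receptor half-site), TGTTTAC (forkhead factors) and CACGTG (the E-box). GATAA and AGATAA were added after the Nppa sequence had been seen. The windows lie at chr9:57697363-57697612 on the plus strand, chr14:54994627-54994876 on the minus strand, chr4:148000472-148000721 on the plus strand and chr12:84009252-84009501 on the plus strand.
Cyp1a1: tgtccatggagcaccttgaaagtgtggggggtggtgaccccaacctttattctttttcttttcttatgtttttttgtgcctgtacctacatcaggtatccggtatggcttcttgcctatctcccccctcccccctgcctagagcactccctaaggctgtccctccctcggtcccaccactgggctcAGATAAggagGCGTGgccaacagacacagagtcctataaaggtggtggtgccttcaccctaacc
Myh7: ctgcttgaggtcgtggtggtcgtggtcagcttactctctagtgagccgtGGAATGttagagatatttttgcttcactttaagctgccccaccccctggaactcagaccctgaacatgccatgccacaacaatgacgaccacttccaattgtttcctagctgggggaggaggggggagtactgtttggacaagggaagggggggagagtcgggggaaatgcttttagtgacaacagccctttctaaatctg
Nppa: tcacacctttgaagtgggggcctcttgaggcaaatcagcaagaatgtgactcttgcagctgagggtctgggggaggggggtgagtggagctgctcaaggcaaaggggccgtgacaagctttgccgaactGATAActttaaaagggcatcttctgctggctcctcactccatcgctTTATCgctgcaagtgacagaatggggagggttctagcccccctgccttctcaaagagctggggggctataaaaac
Acot1: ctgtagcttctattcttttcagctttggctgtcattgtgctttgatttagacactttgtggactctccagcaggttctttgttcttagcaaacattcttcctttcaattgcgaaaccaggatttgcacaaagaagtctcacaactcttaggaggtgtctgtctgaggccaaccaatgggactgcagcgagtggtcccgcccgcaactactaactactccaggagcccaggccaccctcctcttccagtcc

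The Cyp1a1 window held GCGTG at -54, counted from the start site to the motif's first base, and AGATAA at -64. The Myh7 window held CATTCC at -201 on the reverse strand, and the window of the other Myh7 start site in the table had no match. The Nppa window held GATAA at -121 and, on the reverse strand, at -75. The Acot1 window held no match. Of all 32851 promoter windows of this length, 28.2% held GCGTG, 12.6% CATTCC, 22.6% GATAA, 9.99% AGATAA, 14.02% AGGTCA, 3.17% TGTTTAC and 6.02% CACGTG. Windows were found for 48 of the 75 genes that passed. GATAA stood in 4 of the 19 windows of higher genes (21.1%) and in 1 of the 35 windows of lower genes (2.86%). GCGTG stood in 3 of 19 (15.8%) and in 14 of 35 (40%), and AGGTCA in 5 (26.3%) and 8 (22.9%). A match describes the letters and is not evidence of binding.

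Cldn15, a claudin of tight junctions, was -2.57 to -1.58 in the VEH hearts (median -2.22) and -1.68 to 0.73 in the STZ hearts (median -0.58). It rose by 1.70 ± 0.29 (SE), 3.24-fold (limma, adjusted p = 0.0129), and the groups overlapped only where STZ replicate 2, at -1.68, lay below VEH replicate 3. Cldn15 is also a marker of mesothelium, the cell sheet that covers the heart. All 13 mesothelial markers had a positive difference, with a median of 0.84. Only Cldn15 passed, 3 had an unadjusted p under 0.05 (14.01% of all genes), and 9 of the 13 were above background on all 12 arrays. Their mean level was -3.30 to -1.27 in the VEH hearts, highest in replicate 3, and -3.19 to -0.22 in the STZ hearts, highest in replicates 4 and 6. Cldn15 itself was highest in STZ replicates 5 and 3, at 0.73 and 0.30. Within slide 2 the list's median was 0.08, and the difference for Cldn15 was 0.88. In CON hearts the list's median was 0.13, and Cldn15 rose by 1.55 (limma, adjusted p = 0.00341). The part of mesothelium in the Cldn15 result was not tested. In whole tissue, more cells of a type and more RNA per cell cannot be told apart.

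Smaller rises were found for Tusc5 and Etv5. Tusc5, now called Trarg1, encodes a protein that helps sort GLUT4 vesicles in fat cells. It was -2.71 to -2.30 in the VEH hearts (median -2.46) and -2.16 to -1.08 in the STZ hearts (median -1.55). All 6 STZ hearts lay above all VEH hearts, and it rose by 0.89 ± 0.15 (SE; limma, adjusted p = 0.00905). Etv5, a transcription factor of the ETS family, was 2.64 to 3.23 (median 2.96) against 3.49 to 4.09 (median 3.64). It rose by 0.76 ± 0.13 (SE; adjusted p = 0.0120), again with no overlap. Both kept their calls under the slide block (adjusted p = 0.0141 and 0.0101) and with each of the 12 arrays left out in turn. Etv5 was the more even of the pair over slides, at 0.78, 0.61 and 1.13, where Tusc5 was at 1.26, 0.45 and 1.17.

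Further genes that rose were close to the threshold. Fam183b rose by 1.33 (limma, adjusted p = 0.0494), Rpp25, an RNase P and MRP subunit, by 1.03 (adjusted p = 0.0413), and Gsdma, a gasdermin of the pore-forming family, by 0.73 (adjusted p = 0.0442). H19, an imprinted noncoding RNA, rose by 1.17 (adjusted p = 0.0454), from 1.85 to 3.20 in the VEH hearts (median 2.58) to 3.16 to 4.31 in the STZ hearts (median 3.62), and its 6 other probes gave 0.29 to 1.26. The groups overlapped for H19 and Fam183b. Once slide was a block these 4 no longer passed, at adjusted p = 0.0525 to 0.0765. The same held for Cela1, an elastase gene that rose by 1.16 (adjusted p = 0.0495) from a signal above background in 4 of 6 VEH hearts. Rbp7, a retinol-binding protein of endothelium, rose by 0.93 (adjusted p = 0.0494; 0.0765 with the block) as the 1 of 13 endothelial markers to pass. The endothelial list's mean level was 3.64 to 3.79 in the VEH hearts and 3.72 to 4.13 in the STZ hearts, with a median difference of 0.10.

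Sept6, now Septin6, a gene for a filament-forming GTPase, was -1.16 to -0.82 in the VEH hearts (median -0.97) and -0.66 to -0.09 in the STZ hearts (median -0.37). The groups did not overlap, and it rose by 0.58 ± 0.11 (SE; limma, adjusted p = 0.0241; 0.0292 under the slide block). Its other probe gave 0.06, so the probes disagree. Vsig10l, an immunoglobulin-domain gene, rose by 0.57 ± 0.11 (SE; adjusted p = 0.0269; 0.0304 with the block), from -3.29 to -3.06 in the VEH hearts to -2.88 to -2.21 in the STZ hearts, with no overlap. With 1 of the 12 arrays left out, Sept6 kept its call in 5 fits and Vsig10l in 4.

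The genes that fell are led here by Plekhh1, which encodes a protein with pleckstrin-homology and FERM domains. It was -1.80 to -1.05 in the VEH hearts (median -1.64) and -4.28 to -2.38 in the STZ hearts (median -3.05). It fell by 1.76 on the log2 scale (SE 0.27), a 3.38-fold change (limma, adjusted p = 0.00869), and the groups were apart. STZ replicates 3 and 5 were lowest, at -4.28 and -4.15, and without both the difference was -1.29 and still passed (adjusted p = 0.0420). Within slides it was -2.25, -1.13 and -1.81.

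Grin3b, a subunit of NMDA-type glutamate receptors, was -1.002 to -0.59 in the VEH hearts (median -0.82) and -2.99 to -1.31 in the STZ hearts (median -1.98). It fell by 1.25 on the log2 scale (SE 0.19; limma, adjusted p = 0.00869), with no overlap and -1.14, -1.01 and -1.50 within slides. Without STZ replicates 3 and 5 it was -0.94 (adjusted p = 0.0133). Lgi3, a secreted protein of the LGI family of synaptic ligands, was -1.69 to -0.96 (median -1.18) against -2.96 to -1.93 (median -2.47). It fell by 1.23 on the log2 scale (SE 0.18; adjusted p = 0.00869; 0.00306 under the slide block), and STZ replicates 1, 3, 4 and 5 lay within -2.57 to -2.36. Gsg1l, an auxiliary subunit of AMPA-type glutamate receptors, fell by 0.89 on the log2 scale (adjusted p = 0.00869), with -0.90 on its other probe. Plekhh1, Grin3b, Lgi3 and Gsg1l kept their calls with each of the 12 arrays left out in turn.

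Thrsp, a regulator of fatty acid synthesis that insulin and glucose induce in liver, was 4.69 to 5.41 in the VEH hearts (median 4.93) and 3.31 to 4.39 in the STZ hearts (median 4.02), with no overlap. It fell by 1.01 on the log2 scale, 2.01-fold (SE 0.18; limma, adjusted p = 0.0173), with -0.60, -1.15 and -1.43 within slides. Whrn, a scaffold protein, fell by 0.76 on the log2 scale (adjusted p = 0.0173) and Ybx2, an RNA-binding protein of germ cells, by 0.82 (adjusted p = 0.0173). Their other probes gave -0.25 and -0.34, and their groups did not overlap, although STZ replicate 5 and the lowest VEH heart were level for Whrn, at 2.97. With 1 of the 12 arrays left out, Thrsp and Ybx2 each kept the call in 8 fits and Whrn in 7.

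Mdga1, a cell-surface protein anchored by a lipid, fell by 1.31 on the log2 scale (limma, adjusted p = 0.0286) and Crybb1, a beta crystallin, by 1.30 (adjusted p = 0.0241). Both kept the call under the slide block, at adjusted p = 0.0304 and 0.0404, and each lost it in 6 of the 12 fits that left out 1 array, at adjusted p up to 0.0856 and 0.0727. Lgr5, a receptor for R-spondins, fell by 0.87 on the log2 scale (adjusted p = 0.0472; 0.0109 with the block), and kept the call in 2 of the 12 fits that left out 1 array (adjusted p up to 0.120). Only 2 of 6 STZ hearts were above background for it, so the size of its change rests in part on background signal. Its groups overlapped at STZ replicate 2.

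Another 5 genes fell but did not pass under the slide block, at adjusted p = 0.0551 to 0.0734. They were Tmprss4, a transmembrane serine protease, at -1.73 (adjusted p = 0.0494), Igfbpl1, a relative of the insulin-like growth factor binding proteins, at -1.53 (adjusted p = 0.0442), and Cacna1g, the pore of a T-type calcium channel, at -1.24 (adjusted p = 0.0476). The others were Osta, a subunit of an organic solute transporter, at -1.10 (adjusted p = 0.0442), and Cux2, a homeobox factor, at -1.03 (adjusted p = 0.0472). For all 5 the groups were apart. Igfbpl1 was above background in 3 of 6 STZ hearts, so the size of its change rests in part on background signal.

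Other genes that fell, named here after their values were seen, had smaller differences. Crhr2, a receptor for corticotropin-releasing hormone and urocortins, was on average 3.20 ± 0.05 in the VEH hearts and 2.69 ± 0.09 in the STZ hearts (SD, n = 6 each), with -0.45, -0.52 and -0.54 within slides (limma, adjusted p = 0.0472). Pla2g5, a secreted phospholipase, was 3.86 ± 0.13 against 3.17 ± 0.22 (adjusted p = 0.0173). Aldh1l2, a mitochondrial enzyme of folate metabolism, was -0.84 ± 0.17 against -1.51 ± 0.13 (adjusted p = 0.0286). Ckb, the brain-type creatine kinase, was 2.95 ± 0.03 against 2.24 ± 0.34 (adjusted p = 0.0442), with a wider spread in the STZ hearts. Pla2g5 and Aldh1l2 kept their calls under the slide block, at adjusted p = 0.0141 and 0.0292, and Crhr2 and Ckb missed, at 0.0675 and 0.0623.

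Gm4841, a gene named here after its values were seen, had by size the greatest log2 difference among the 75. It was -1.53, -1.45, -0.65, -0.72, -0.18 and 1.65 in VEH replicates 1 to 6 and -6.78, -2.75, -6.48, -6.14, -7.51 and -4.38 in STZ replicates 1 to 6. Only 2 of 6 STZ hearts were above background, so its difference of -5.19 ± 0.83 (SE; limma, adjusted p = 0.00869) has no firm size. In CON hearts it was -1.69 and did not pass (adjusted p = 0.360). The difference between the genotypes, -3.50, did not pass either (adjusted p = 1).

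With slide as a block 9 genes passed that did not pass without it. Among those higher were Star, which delivers cholesterol into mitochondria for steroid synthesis, at 1.52 (limma, adjusted p = 0.0304; 0.0563 without the block), and Fbp2, the muscle fructose bisphosphatase, at 0.77 (0.0418; 0.0509 without). Inpp5f, a phosphoinositide phosphatase gene, was also higher, at 0.76 (0.0166; 0.0792 without). Over the alternative settings, single slides aside, the smallest differences of Star, Fbp2 and Inpp5f were 0.48, 0.58 and 0.16. Among those lower were Slc37a4, the glucose-6-phosphate carrier of the endoplasmic reticulum, at -0.56 (0.0404; 0.0982 without), and Cep55, a protein of cell abscission, at -0.47 (0.0346; 0.140 without). Hs2st1, a heparan sulfate sulfotransferase, was at -0.40 (0.0406; 0.0681 without), and Tmem50b at -0.35 (0.0315; 0.123 without).

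**Figure D2:**
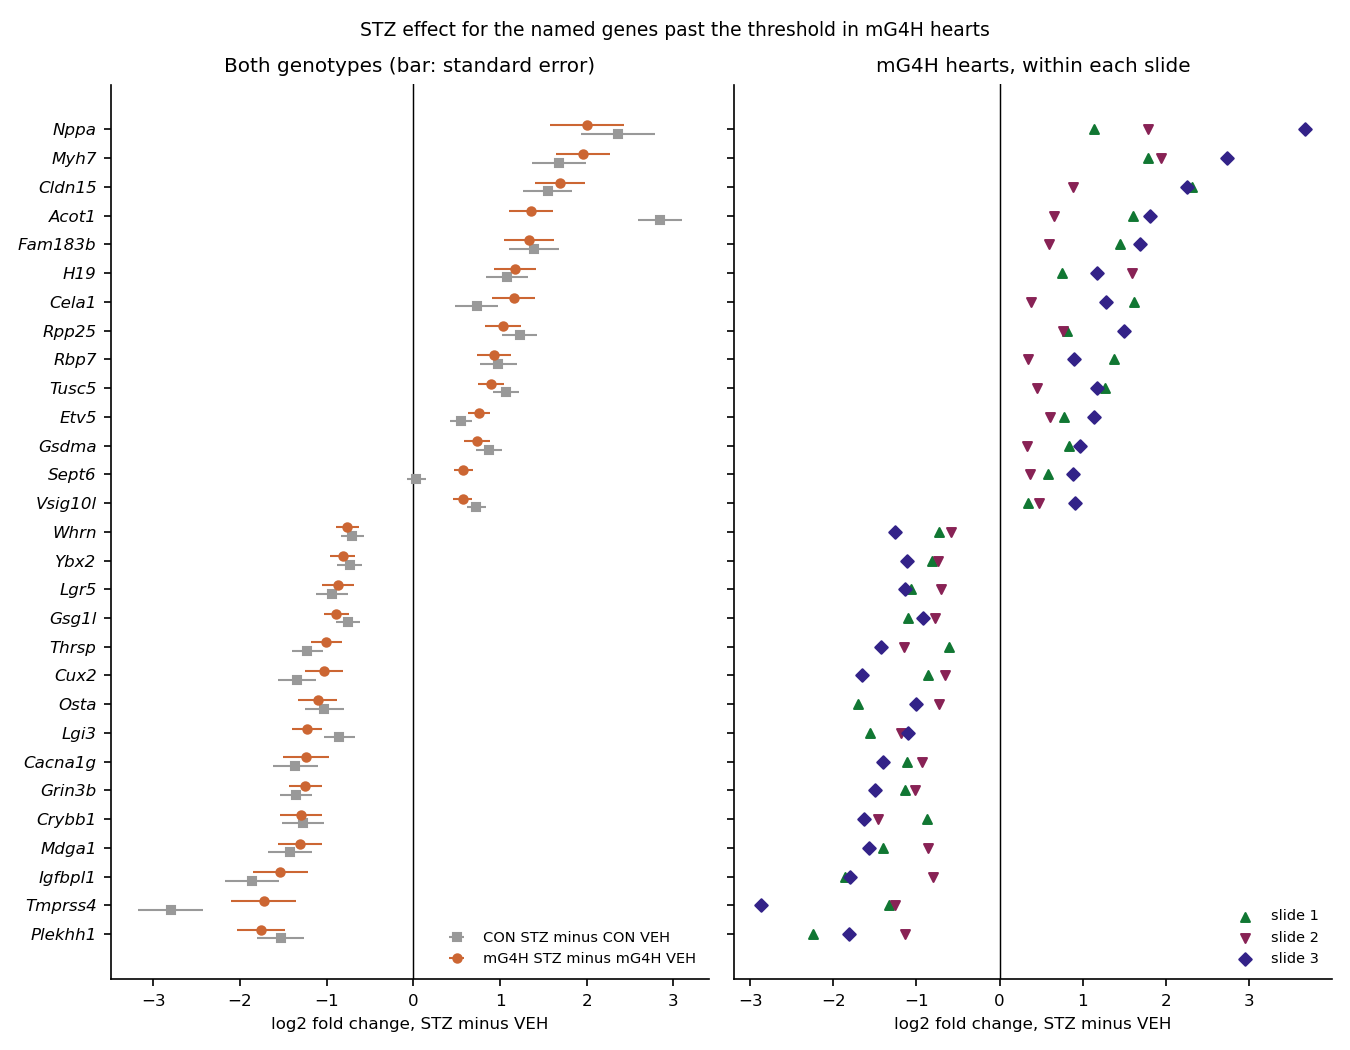
Log2 fold change, STZ minus VEH, of 29 named genes past the threshold in mG4H hearts: left, mG4H (orange) and CON (grey) hearts with the standard error; right, mG4H hearts within slides 1 to 3. Every one keeps its sign in CON hearts and within each slide, and slide 2, which holds mG4H STZ replicates 1 and 2, lies nearest 0 for 22 of the 29. The genes were selected on these mG4H arrays, which favours the same sign within slides.

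The spread among diabetic mG4H hearts was wide. The SD within a group, as a median over all genes, was 0.22 in mG4H VEH, 0.39 in mG4H STZ, 0.24 in CON VEH and 0.33 in CON STZ. It was larger after STZ than after buffer for 75.1% of all genes and for 70 of the 75 that passed. STZ replicate 2 was the STZ heart nearest the VEH mean for 52 of the 75, and each of the other 5 STZ hearts for 1 to 10 of them. Among VEH hearts, replicate 3 was the nearest to the STZ mean for 22 of the 75. Without STZ replicate 2, 627 genes passed (2.22%), 286 higher and 341 lower, the 75 among them. Of the 627, 292 also passed in CON hearts, all in the same direction, in a test that shares arrays for the spread. The mouse of STZ replicate 2 had a blood glucose of 504, inside the range of its group.

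**Figure D3:**
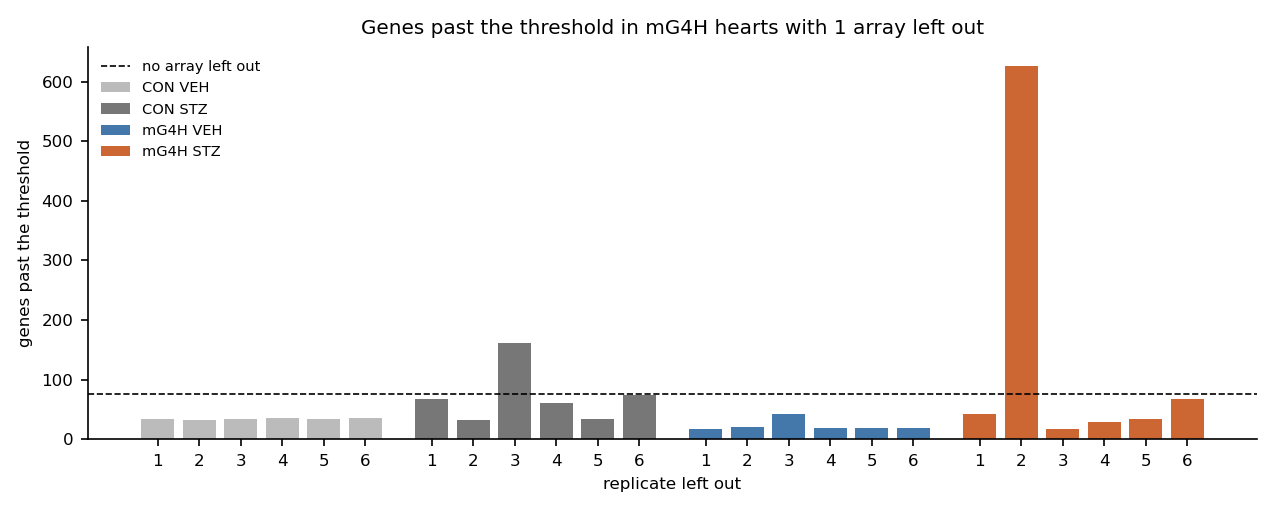
Number of genes past the threshold in mG4H STZ against mG4H VEH when each of the 24 arrays is left out in turn; the dashed line is the 75 with no array left out. Leaving out mG4H STZ replicate 2 gives 627, and any other array 17 to 161.

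The response of mG4H hearts was set beside that of CON hearts, in which 1117 genes passed (3.96%), 469 higher (1.66%) and 648 lower (2.3%). The comparisons share no array in their means, but they share slides and the estimate of each gene's spread. Passing in both is therefore not independent. All 75 genes had the same sign in CON hearts, and 69 of them passed there, 92.0% of the mG4H genes and 6.18% of the CON genes. Of the 1117 CON genes, 97.9% had the same sign in mG4H hearts, against 71.2% of all genes. Their median log2 fold change was 0.67 in CON and 0.39 in mG4H hearts for the higher, and -0.49 and -0.32 for the lower. These genes were selected for passing in CON hearts, which favours a larger CON value. Of the 75 that passed in mG4H hearts, 32 had the larger difference in mG4H and the rest in CON hearts. The 6 that did not pass in CON hearts were Cela1, Sept6, Ralgapa2, Aldh1l2, Gm88 and Gm4841, the last 4 chosen after their values were seen.

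The test of the difference between the STZ effects called 0 genes (0%) by limma, with 501 at an unadjusted p under 0.05 and 1, Abat, with slide as a block. Abat also had the smallest p without the block. It encodes a mitochondrial transaminase of GABA and beta-alanine and was at -0.38 in mG4H and -2.17 in CON hearts, a difference of 1.79 ± 0.30 (SE, adjusted p = 0.150; 0.0431 under the slide block). In mG4H VEH hearts Abat was 1.73 to 3.12, with VEH replicate 3 highest, and in mG4H STZ hearts 1.09 to 2.31. Fgf21, a hormone of the starvation response, was at -0.57 and 1.79 (difference -2.36, adjusted p = 0.228), and Grin2c, an NMDA receptor subunit, at 0.42 and -1.19 (difference 1.61, adjusted p = 0.311). Cib3, a calcium-binding protein, was at 0.20 and -1.29 (difference 1.49, adjusted p = 1). Acot1 rose in both, by 1.36 and 2.84, and its difference of -1.48 ± 0.36 (SE) did not pass (adjusted p = 1). Acot4 was at 0.15 and 0.93 (difference -0.78, adjusted p = 0.607). Sept6 was at 0.58 and 0.03, and its difference of 0.54 ± 0.15 (SE) did not pass (adjusted p = 1).

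Gene lists are described by how many members passed the test over all genes and by their median log2 fold change, beside a median of 0.06 over all genes. Counts of members at an unadjusted p under 0.05 are to be read against 14.01% of all genes at that p (3955 of 28235). Among 22 PPAR alpha targets outside beta-oxidation, 2 rose, Acot1 among them, 0 fell, and 19 had a positive difference. Of the 22, 13 had an unadjusted p under 0.05, where all genes had 14.01%. Their median was 0.54, with 0.64, 0.20 and 0.67 within slides 1, 2 and 3, and all 6 STZ hearts lay above all VEH hearts for 6 of them, against 0.453% of all genes. The list's mean level was 4.20 to 4.38 in the VEH hearts, and 4.82, 4.32, 5.24, 4.81, 5.32 and 4.92 in STZ replicates 1 to 6, so replicate 2 lay inside the buffer range. Without that heart 10 passed, the median being 0.67, and without STZ replicates 3 and 5 none of the 22 passed, the median being 0.24. In CON hearts 11 rose, with a median of 0.80.

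Other members of this list did not pass, and Plin2, Angptl4 and Ucp3 are named here after their values were seen. Plin2, a coat protein of lipid droplets, had a difference of 0.57 (limma, adjusted p = 0.0509) and Angptl4, a secreted inhibitor of lipoprotein lipase, 1.41 (adjusted p = 0.0563). Ucp3, an uncoupling protein of muscle, was at 1.16 (adjusted p = 0.0826), Pdk4, an inhibitory kinase of pyruvate dehydrogenase, at 0.91 (adjusted p = 0.0899), and Txnip, an inhibitor of glucose uptake, at 0.71 (adjusted p = 0.0902). Pdk4 was 6.45 to 7.26 in the VEH hearts and 7.23, 7.04, 8.36, 7.72, 8.76 and 7.95 in STZ replicates 1 to 6, so replicates 1 and 2 lay inside the buffer range.

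On the lists of fuel-handling genes 0 members passed limma's test, apart from the PPAR alpha targets and thioesterases described above. Among 23 fatty acid oxidation enzymes 6 had an unadjusted p under 0.05 (14.01% of all genes), with a median of 0.08, and Cpt1a, which loads fatty acids for entry into mitochondria, was at 0.48 (limma, adjusted p = 0.0792). In CON hearts 8 of them rose. Among 25 genes of glucose uptake and glycolysis 10 had an unadjusted p under 0.05, with a median of -0.10. Pkm2, now Pkm, the muscle-type pyruvate kinase, had the smallest p there, at -0.30 (adjusted p = 0.0983), with every STZ heart below every VEH heart. The other lists were 12 pyruvate oxidation genes (median 0.03, 4 at an unadjusted p under 0.05), 18 glycogen genes (-0.09 and 5) and 18 hexosamine, polyol and pentose phosphate genes (0.04 and 7). They also took in 14 glucose-responsive Mondo/ChREBP genes (0.01 and 4) and 26 genes that break down ketone bodies and branched-chain amino acids (-0.06 and 4), where 6 of the last list fell in CON hearts. Oxct1, which activates ketone bodies for oxidation, was at -0.39 in mG4H (adjusted p = 0.136) and fell by 0.85 in CON hearts.

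Genes of the mitochondrial ribosome and of the respiratory complexes mostly had small negative differences, and none passed. Of 62 mitochondrial ribosome genes 60 had a negative difference, with a median of -0.16 and with -0.14, -0.15 and -0.26 within slides 1, 2 and 3. All STZ hearts lay below all VEH hearts for 10 of the 62, against 1.22% of all genes. The list's mean level was 4.30 to 4.42 in the VEH hearts and 4.04 to 4.23 in the STZ hearts, with no overlap. In limma's test 0 members passed, and 27 of the 62 had an unadjusted p under 0.05 (14.01% of all genes). Mrps12, a protein of the small subunit, was at -0.35 (limma, adjusted p = 0.0600). Without STZ replicate 2, 4 of the 62 fell, and in CON hearts 7 fell. Complex I, which takes electrons from NADH, had 35 of 37 genes with a negative difference (median -0.11), 0 past the threshold and 3 at an unadjusted p under 0.05. Complexes II to V had 39 of 42 negative (median -0.08), 0 past it and 1 at an unadjusted p under 0.05. Of 21 TCA cycle genes 16 were negative and 5 positive (median -0.04), and of 23 genes of mitochondrial biogenesis and dynamics 13 were negative and 10 positive (median -0.01). Neither list had a member past it, and they had 0 and 2 at an unadjusted p under 0.05. Scaled to array medians these medians were -0.27, -0.22, -0.19, -0.15 and -0.12 in the same order, where the median of all genes was -0.05.

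**Figure D4:**
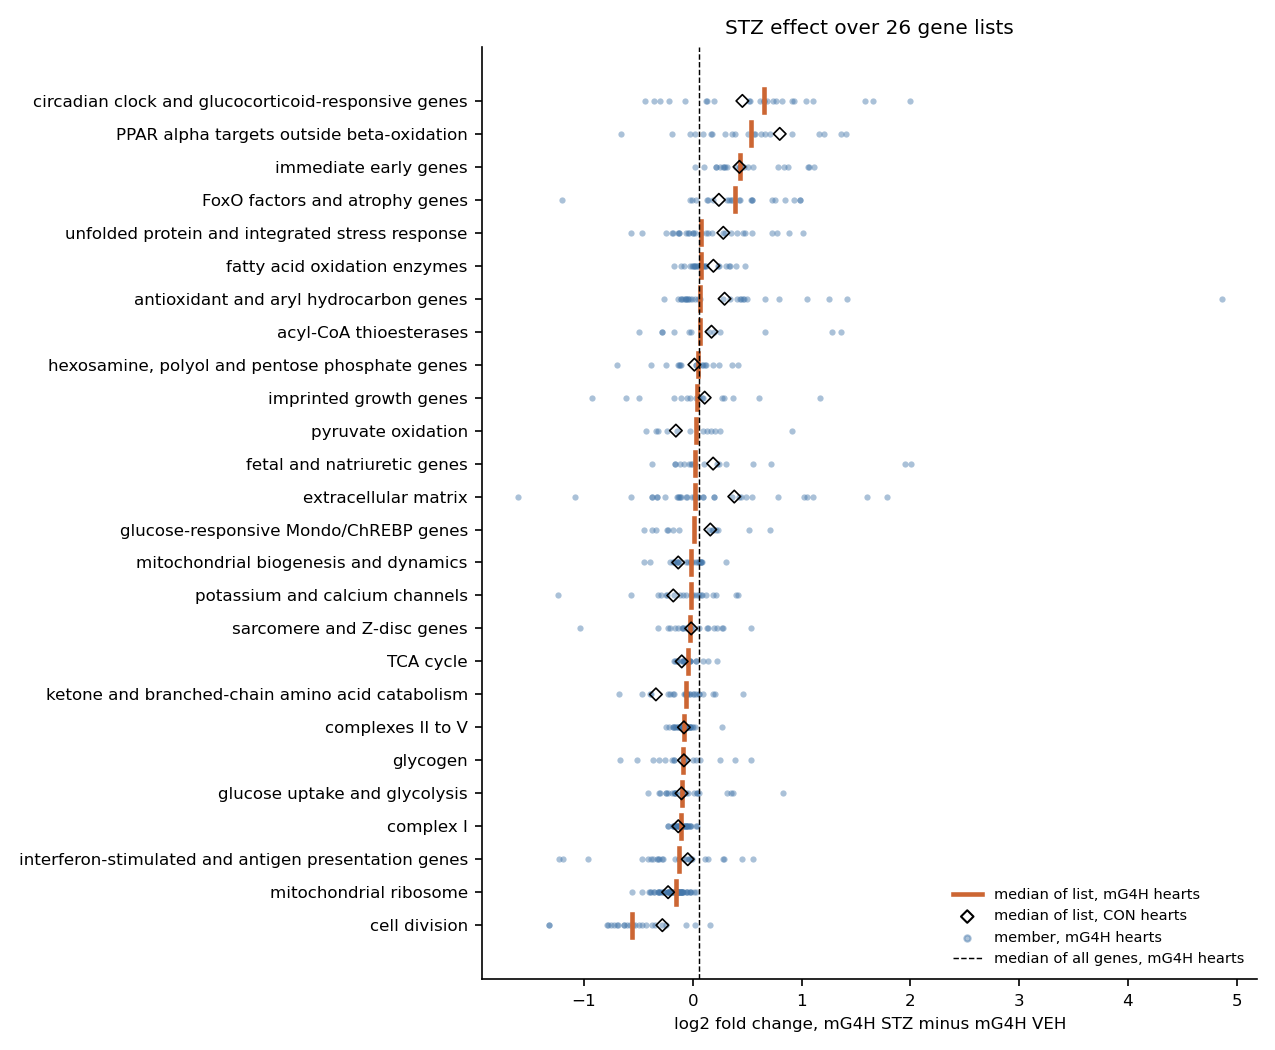
Log2 fold change, STZ minus VEH, of the members of 26 gene lists in mG4H hearts (points) with the list's median in mG4H (bar) and CON hearts (diamond); the dashed line is the median of all genes in mG4H hearts, 0.06. The clock and glucocorticoid, PPAR alpha and immediate early lists have the highest medians, and cell division the lowest.

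Some list medians moved with few hearts. Among 24 measured clock and glucocorticoid-responsive genes the median was 0.66, but only Hlf, a clock-output factor of the PAR family, passed, and it fell, by 0.44 on the log2 scale (SE 0.08; limma, adjusted p = 0.0233; 0.0174 under the slide block). Hlf was 0.15 to 0.45 in the VEH hearts and -0.42 to 0.13 in the STZ hearts, with no overlap, and kept the call in 7 of the 12 fits that left out 1 array. The list's mean level was 1.49 to 1.66 in the VEH hearts and 1.97, 1.54, 2.98, 1.87, 3.002 and 1.79 in STZ replicates 1 to 6. STZ replicates 3 and 5 were thus far above the rest, and without them the median was 0.18. Per1 and Per2, core clock repressors named here after their values were seen, had differences of 1.59 (adjusted p = 0.182) and 1.66 (adjusted p = 0.101).

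The same hearts stood out for immediate early genes, which respond to stimuli within minutes. All 23 measured had a positive difference, with a median of 0.43. In limma's test 0 passed, with 11 of the 23 at an unadjusted p under 0.05 (14.01% of all genes). The mean level was 0.18 to 0.47 in the VEH hearts and 0.78, 0.26, 1.64, 0.45, 1.09 and 0.36 in STZ replicates 1 to 6, so 3 of the STZ hearts lay inside the buffer range. The median was 0.14 without STZ replicates 3 and 5. Myc had the smallest p on that list, at 1.06 (limma, adjusted p = 0.114). The 22 FoxO and atrophy genes had a median of 0.39, and 0.03 without the same pair, with 0 past the threshold and 8 at an unadjusted p under 0.05. Foxo6 was at -1.20 (adjusted p = 0.0826).

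Cell division genes went the other way. Of 24 measured, 22 had a negative difference, with a median of -0.56. In limma's test 0 passed, with 1 at an unadjusted p under 0.05. Their mean level was -1.40 to -0.79 in the VEH hearts, and -2.23, 0.01, -2.70, -1.95, -2.16 and -0.97 in STZ replicates 1 to 6. STZ replicate 2 was the highest of all 12 hearts and replicate 6 lay inside the buffer range, while the other 4 lay below it. Without replicate 2 the median was -0.90 and 2 fell, and without STZ replicates 3 and 5 the median was -0.15.

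**Figure D5:**
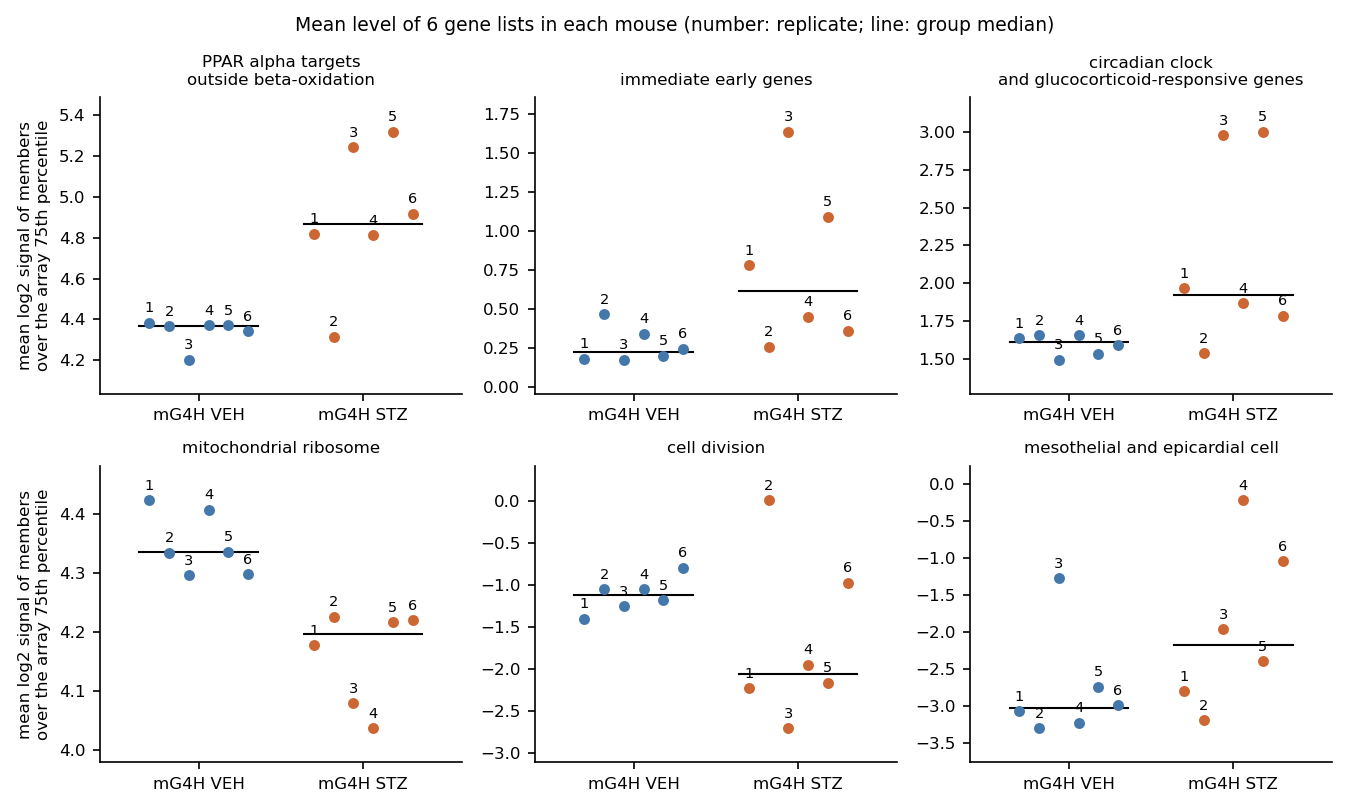
Mean level of the members of 6 gene lists in each of the 12 mG4H hearts (mean log2 signal over the array's 75th percentile); numbers are replicates and lines group medians. Mitochondrial ribosome genes are apart between groups, while STZ replicates 3 and 5 lead the immediate early and clock lists and STZ replicate 2 lies inside the VEH range or, for cell division, above it in the other panels.

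Of the other lists, limma called 0 of 21 sarcomere and Z-disc genes (median -0.03, 8 at an unadjusted p under 0.05), and 2 of 17 fetal and natriuretic genes rose, Myh7 and Nppa (median 0.02). Among 35 extracellular matrix genes 0 passed (median 0.02, 8 at an unadjusted p under 0.05), where 8 rose in CON hearts. Ctgf, now Ccn2, a matricellular growth factor, was 4.86 to 5.64 in the VEH hearts and 5.82 to 8.80 in the STZ hearts. Its groups did not overlap, yet its difference of 1.78 ± 0.40 (SE) missed the threshold (limma, adjusted p = 0.0563). Cacna1g was the 1 of 22 potassium and calcium channel genes to pass (median -0.01), and H19 the 1 of 16 imprinted growth genes (median 0.04). None passed of 29 unfolded protein and integrated stress response genes (median 0.08, 7 at an unadjusted p under 0.05) or 27 interferon-stimulated and antigen presentation genes (-0.13 and 6). Under median scaling the list medians of fetal, fatty acid oxidation, thioesterase, pyruvate oxidation, hexosamine, ChREBP, stress response, matrix, imprinted and aryl hydrocarbon genes turned negative, between -0.10 and -0.03, around the shifted median of all genes, -0.05. Without STZ replicates 3 and 5 the interferon median turned to 0.03, fatty acid oxidation to -0.0096, pyruvate oxidation to -0.06, hexosamine to -0.0057 and ChREBP to -0.09. Without STZ replicate 2 mitochondrial biogenesis turned to 0.0071 and channels to 0.02.

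Markers checked the tissue. The 13 markers of ventricular cardiomyocytes were above background on all 12 arrays, with a mean level of 8.05 to 8.30 in the VEH hearts and 8.01 to 8.33 in the STZ hearts, and limma called 0 (median -0.09, 1 at an unadjusted p under 0.05). None passed among 13 fibroblast markers (median 0.06, 0 at an unadjusted p under 0.05), 11 of smooth muscle and pericytes (0.03 and 3) or 15 of macrophages and monocytes (0.19 and 3). None passed among 8 markers of neutrophils (0.63 and 0), 10 of T and NK cells (-0.11 and 3) or 6 of B cells (-0.13 and 2). The same held for 5 mast cell (0.20 and 1), 10 adipocyte (0.10 and 2), 9 Schwann cell and neuron (0.18 and 2) and 7 skeletal muscle markers (0.04 and 2). The neutrophil list's mean level was -1.90 to -1.07 in the VEH hearts and -1.76 to 0.26 in the STZ hearts, highest in replicate 3. Among 6 erythroid markers 0 passed, 1 had an unadjusted p under 0.05, and the median was -0.51, or 0.39 without STZ replicates 3 and 5. Without that pair the T and NK cell median turned to 0.0054 and that of smooth muscle to -0.02, and without STZ replicate 2 the skeletal muscle median turned to -0.06. Hbb-b1, now Hbb-bt, a beta globin gene that marks blood left in the tissue, was 7.08 to 7.83 in the VEH hearts and 2.21 to 8.73 in the STZ hearts, lowest in replicate 3 and highest in replicate 2.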

How the data were processed

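Total RNA from left ventricles was hybridised to one-colour Agilent arrays with Cy3 label. The deposited scanner files hold a processed signal per spot, a background-corrected intensity on a linear scale, made with Agilent Feature Extraction 10.5.1.1 per the file headers, which place the probes on mm9. Levels were computed as log2 of this intensity from which the log2 of the array's own 75th percentile, over 59305 gene spots, was subtracted. Control and outlier spots were left out, spots were averaged per probe, and a probe was kept if well above background on 6 or more of the 24 arrays. The probe with the brightest mean stood for each gene name, which left 28235 genes. Names are those of the array, with current names from the RefSeq table. Exon or UTR positions of probes were not assigned, since no genome of that build was used.

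Group means were fitted over all 24 arrays with limma 3.58.1 in R 4.3.3 (lmFit, eBayes, no covariate), and p-values were adjusted by Benjamini-Hochberg over all genes. This shares 1 estimate of the spread over the 4 groups, and the number of arrays limits the precision. Tested on simulated data for mG4H STZ against mG4H VEH over 28235 genes, the fit called 18%, 46%, 92% and 100% of genes with true log2 changes of 0.5, 1, 2 and 3, with 9 false among 137 calls. The simulated noise was independent and normal, with the same spread in every group and no slide effect. The real arrays differ in each of these, so the shares do not carry over to them. Where a group was at background on every array, a fold is a lower bound.

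Genes are named by rule. They are the 15 highest and 15 lowest that passed, with a symbol and with 1 or more groups above background throughout (6 of 6 arrays), and up to 4 called members of each list, or else the 2 with the smallest p. The rule adds up to 5 each way that passed only with slide as a block, 5 with the smallest p for the difference between genotypes, and Slc2a4. Genes named outside it were chosen after their values were seen. One gene that the rule names is not reported here. The samples compared, gene lists and rule were chosen with earlier results of these data known. Alternatives covered scaling, background correction, the filter, the probe rule, the arrays fitted, slide, replicate number, body weight, thresholds and each array left out. Glucose and weight were compared by exact permutation over 924 splits. Promoters were searched with Python 3.11.15.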

Additional observations from a re-analysis of the deposited data

Results flagged for a closer look

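In 16 of 212 groups of 6 hearts, over the genes named by the rule, blood glucose and body weight, the highest or lowest heart stood apart from the others by a gap that was too large a share of the group's range by Dixon's test at the 95% level. Chance alone gives about 1 in 20. Of the 16, 7 were in VEH and 9 in STZ hearts.

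VEH replicate 3, the heart on slide 4, was the lowest of its group for Osta at -0.17, Ybx2 at 0.44 and Slc2a4 at 6.33, and the highest for Abat at 3.12. STZ replicate 3 was the lowest for the homeobox gene Cux2 at -1.41, for Tfb1m, a factor for mitochondrial ribosomal RNA, at 0.0747, and for the globin gene Hbb-b1 at 2.21. It was the highest for Star at -1.99 and for Cidea, a lipid droplet protein of fat cells, at 6.59. STZ replicate 5 was the highest for Dlst, a subunit of the TCA cycle's oxoglutarate dehydrogenase, at 6.34, and the lowest for the fibroblast marker Pi16 at 4.33.

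Single genes stood apart in other hearts. STZ replicate 2 was the lowest of its group for Txnip at 4.98, and STZ replicate 4 the highest for Cep55 at -1.25. VEH replicate 1 was the lowest for the cell cycle kinase Cdk1 at -4.11, VEH replicate 2 the lowest for Tmem50b at 3.79, and VEH replicate 6 the highest for the mast cell receptor Kit at -0.61.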

How the results depend on the processing

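Against 75 genes past the threshold, the count was 6 with median scaling, 31 with no filter on dim probes, 125 for genes above background on all 24 arrays, 43 for the mean of all probes and 36 for each probe on its own. It was 227 with array weights, 203 with a trended and robust prior, 48 with slide as a block, 270 with slide as a random block, 23 without slide 4 and 17 with body weight as a covariate. It was 0 from the 12 mG4H arrays alone and 0 within slide 1, 2 or 3, where 1862, 598 and 970 genes had an unadjusted p under 0.05 in limma's test. Thresholds of 0.01 and 0.1 gave 12 and 309, and a further 2-fold minimum 27. Leaving out each of the 24 arrays in turn gave 17 to 627. The additions made after the data were seen gave 5 without STZ replicates 3 and 5, and 445 without STZ replicate 2 under the slide block. The cause of these changes was not tested, and the subsets also hold fewer arrays.

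The difference between the genotypes' STZ effects, 0 genes, was 6 with array weights, 1 each with the trended prior, slide as a block, slide as a random block and without slide 4, 2 under the slide block without STZ replicate 2, and 0 to 1 with each array left out. The glucose difference ran from 405.1 to 425.3 and the weight difference from -3.28 to -1.82 with 1 mouse left out.

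Replicate numbers did not pair the mG4H hearts. Correlations of same-numbered deviations were 0.03, 0.29, -0.19, -0.43, 0.11 and 0.35, and 0 of the 6 STZ hearts correlated best with their own number. With a replicate block 59 genes passed, 46 of them among the 75, and 14 with replicate and slide blocks.

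Signs turned for few named genes, none of them past the threshold. Mcam was 0.0235 among genes above background on all 24 arrays, Dlst 0.0252 within slide 1, and Fgf21 0.12, Acot4 -0.0178 and Hbb-b1 0.77 within slide 2. Cib3 was -0.33 within slide 3, and Hbb-b1 0.00473 without STZ replicate 3 (-1.30 without STZ replicate 2) and 0.17 without STZ replicates 3 and 5.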
